A study of Mus musculus with 10 samples.

Results

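In the cerebral cortex of HIV-1 gp120 transgenic mice, 6 genes were measured in every animal that were at or near 0 reads in every wild-type animal, and 3 genes showed the opposite pattern. These 9 genes, of 41880 listed in the deposited table, are described here. They were chosen by their values. A gene was taken when it reached at least 1 CPM (its count divided by the library total and multiplied by 1000000) in all 5 libraries of one genotype and had at most 3 reads in each of the 5 libraries of the other. Because the same counts chose them, the difference between the genotypes is given for these genes as a description, and no test of it is used as support. The identifiers numbered MGP_BALBcJ_G0023500 to MGP_BALBcJ_G0023599 were left out by the rule; 96 of them are in the table, and 0 of these met the thresholds.

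Cortical mRNA was sequenced from 5 HIV-1 gp120 transgenic mice (gp120tg) and 5 wild-type mice (WT), all aged 12 months, with 1 library per mouse. The sources used here do not give the promoter that drives the transgene, the founder line, the strain background of either group, the sex of the mice or the days of dissection, so a difference in any of these cannot be told apart from the transgene where it follows genotype. Library totals were 17061862 to 19774880 reads in gp120tg and 16451161 to 19176929 in WT, so that 1 CPM stood for 16.5 to 19.8 reads, and 3 reads for 0.152 to 0.182 CPM. On the second principal component of all tested genes, gp120tg replicate 4 and WT replicates 4 and 5 lay apart from the other libraries (scores of -40.4 to -34.4 against -1.87 to 31.8).

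The gp120 protein is the outer part of the HIV-1 envelope. It binds the receptor CD4 on host cells, and it can be shed from infected cells. Mice that produce it in the brain are used as a model of the neuronal injury and glial activation that accompany HIV infection. A count of 0 for a gene says only that no sequenced fragment was assigned to its gene model; it does not show whether the gene is in the DNA of that mouse.

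The 9 genes are of 2 kinds by their identifiers. MGP_BALBcJ_G0040130, MGP_BALBcJ_G0011347, MGP_BALBcJ_G0007271, MGP_BALBcJ_G0010729 and MGP_BALBcJ_G0039653 carry the form of identifier that Ensembl uses for its annotation of BALB/cJ, an inbred mouse strain. Novel00171, Novel00137, Novel01404 and Novel01436 are numbered models without that prefix. Unprefixed models made up 4 of the 9 genes (44.4%), compared with 3.77% of all rows, 3.68% of the 14400 rows with at least 1 CPM in every gp120tg library and 3.97% of the 14216 such rows in WT. Among the 16941 tested genes the share was 5.80%. No share was taken among genes of like level, and the difference was not tested. The table does not pair identifiers with symbols, and none of them matched the gene tables at hand, so no function, position or sequence is given for any of these genes. For the same reason the labelled tissue could not be checked against cell type markers. Gene lengths are not given either, so levels are compared between libraries and not between genes.

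Of the 6 genes of gp120tg, 2 prefixed ones had at most 1 read in all WT libraries together. MGP_BALBcJ_G0040130 had 91, 47, 69, 58 and 34 reads in gp120tg replicates 1 to 5 and 0 reads in each of the 5 WT libraries. Its level was 3.18 ± 1.11 CPM in gp120tg (SD, n = 5), at least 18.2-fold higher than the floor of 3 reads per library that a count of 0 allows in WT. It was the only one of the 9 genes with no read at all in the other genotype. MGP_BALBcJ_G0011347 had 45, 36, 39, 23 and 24 reads in gp120tg and a single read in WT, in replicate 3, which gave 1.77 ± 0.458 CPM in gp120tg and 0.0122 ± 0.0272 CPM in WT (SD, n = 5 per group). Every gp120tg library of both genes lay far above every WT library, as the rule requires.

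Of the unprefixed models, 2 were counted at 0 or 1 read in each WT library and differed strongly among the gp120tg mice. Novel00171 had 140, 77, 124, 47 and 225 reads in gp120tg replicates 1 to 5, and in WT 1 read each in replicates 1 and 2. Novel00137 had 22, 92, 183, 40 and 221 reads in gp120tg and 1 read in WT, in replicate 4. Both were highest in gp120tg replicate 5, where they reached 11.6 and 11.4 CPM. Their lowest libraries differed: it was replicate 4 for Novel00171 (2.75 CPM) and replicate 1 for Novel00137 (1.11 CPM, close to the minimum of the rule). The highest library was 4.20 times the lowest for Novel00171 and 10.2 times for Novel00137.

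The remaining genes of gp120tg, MGP_BALBcJ_G0007271 and Novel01404, kept a few reads in WT. MGP_BALBcJ_G0007271 had 23, 50, 50, 28 and 37 reads in gp120tg replicates 1 to 5, and in WT 3 reads in replicate 2 and 1 in replicate 5. Novel01404 had 62, 88, 99, 56 and 58 reads in gp120tg, and in WT 2 reads in replicate 2 and 1 in replicate 3. WT replicate 2 thus held reads of both, and it held 6 of the 11 reads that the 6 genes had in all WT libraries together. The levels in gp120tg were 2.003 ± 0.651 CPM for MGP_BALBcJ_G0007271 and 3.87 ± 1.04 CPM for Novel01404 (SD, n = 5).

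The 3 genes of WT had 8 reads in all gp120tg libraries together. MGP_BALBcJ_G0010729 had 140, 111, 97, 90 and 58 reads in WT replicates 1 to 5, and its only reads in gp120tg were 2 in replicate 4. MGP_BALBcJ_G0039653 had 31, 29, 32, 24 and 27 reads in WT and 2 reads in gp120tg, in replicate 1. Novel01436 had 74, 81, 82, 52 and 41 reads in WT, and 1, 1 and 2 reads in gp120tg replicates 1, 2 and 5. None of the 3 was at 0 reads in every gp120tg library. Their levels in WT were 5.86 ± 1.98, 1.68 ± 0.253 and 3.90 ± 1.253 CPM, in the order given (SD, n = 5).

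**Figure D1:**
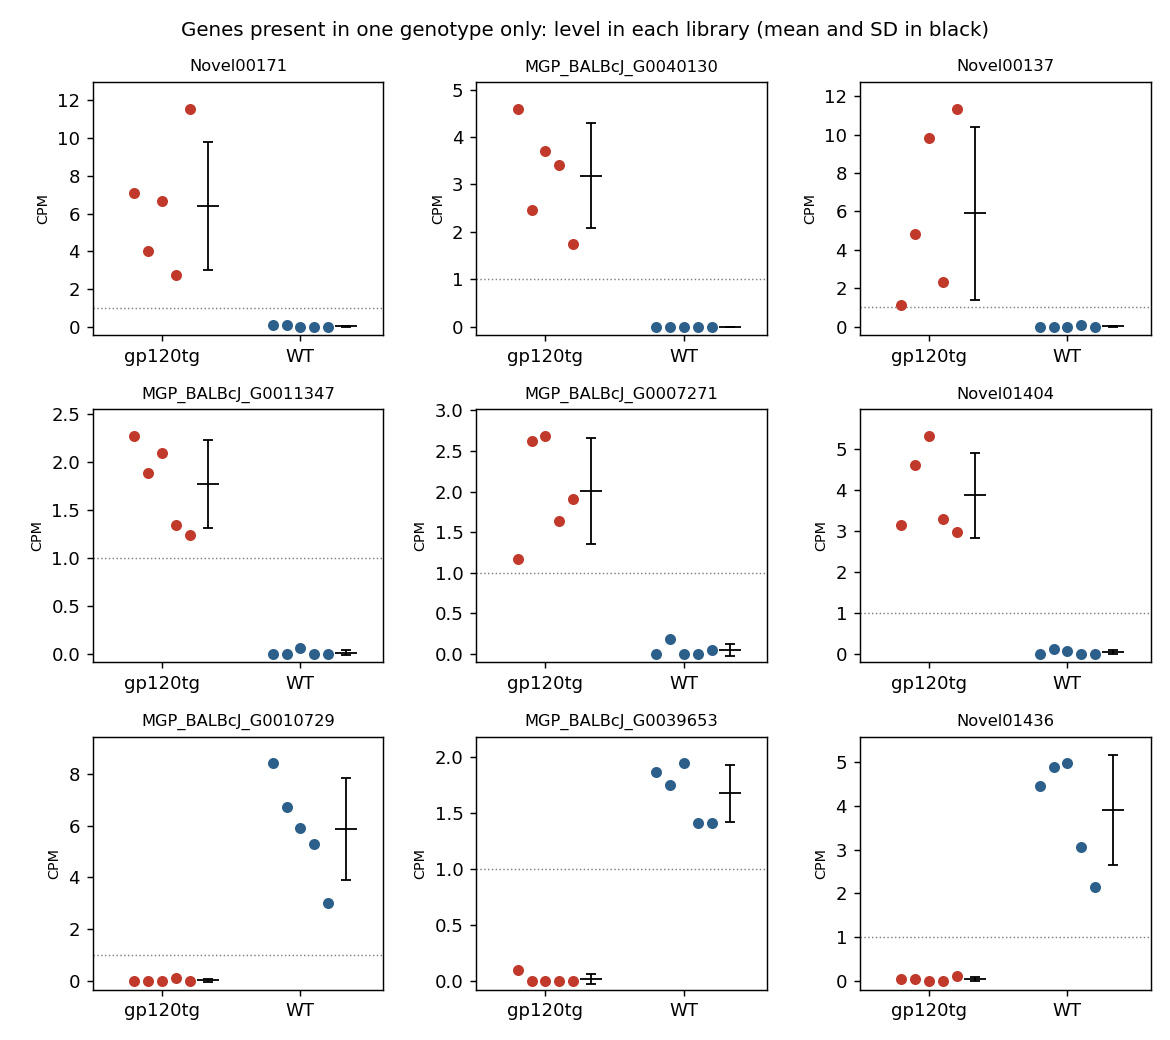
Level of each of the 9 genes in every library, in CPM on a linear axis from 0, with gp120tg in red and WT in blue, libraries in the order of their replicate numbers, and the mean and SD of 5 libraries in black. The dotted line marks 1 CPM; all 5 libraries of one genotype lie above it and all 5 of the other lie at or below 0.181 CPM.

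All 3 genes of WT were lower in WT replicates 4 and 5 than in the other WT libraries. MGP_BALBcJ_G0010729 was at 5.28 and 3.02 CPM in these libraries and at 5.90 to 8.42 CPM in the other 3. MGP_BALBcJ_G0039653 was at 1.41 CPM in both and at 1.75 to 1.95 CPM in the others. Novel01436 was at 3.05 and 2.14 CPM, against 4.45 to 4.98 CPM. Replicates 4 and 5 are the WT libraries that lie apart on the second principal component, and replicate 5 is also the deepest WT library. The same order was frequent in WT at large: of 14216 tested genes with at least 1 CPM in every WT library, 26.2% were lower in both libraries than in all 3 others, and 20.6% were higher. In gp120tg, replicate 4 was the lowest library of Novel00171 but not of the other 5 genes. The mean of the other gp120tg libraries was 2.66 times the level in replicate 4 for Novel00171 and 2.89 times for Novel00137. For the remaining genes of gp120tg it was 0.921 to 1.39 times. Novel00171 and Novel00137 were both highest in gp120tg replicate 5, which had the highest score on the second component (31.8). The part of this axis in the levels was not tested.

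Spread between animals of the genotype in which the gene reached 1 CPM was not used by the rule beyond its minimum. It is described here by the coefficient of variation (SD as a percent of the mean CPM), beside the tested genes whose mean CPM in that genotype was at most 25% higher or 20% lower. Novel00137 varied by 76.9%, more than 98.0% of 1041 such genes, and Novel00171 by 52.9%, more than 94.9% of 1115. The median of these genes was 22.0% and 21.3%. Counting error alone would give 9.47% and 9.04%, which most genes of this level exceed.

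The other 7 genes ranged from near the low end of genes of like level to their upper part. Novel01404 varied by 26.9%, more than 54.0% of genes of like level, MGP_BALBcJ_G0007271 by 32.5%, more than 51.0%, and MGP_BALBcJ_G0040130 by 34.8%, more than 67.3%. MGP_BALBcJ_G0011347 varied by 25.9%, more than 28.8% of genes of like level. In WT, MGP_BALBcJ_G0010729 varied by 33.7%, more than 80.8% of genes of like level, and Novel01436 by 32.1%, more than 69.6%. MGP_BALBcJ_G0039653 varied by 15.1%, more than only 5.25% of such genes, and under the 18.7% that counting error alone gives on average. The minimum of 1 CPM removes variable genes near that level. Among like genes that also had 1 CPM in every library, the percentile of MGP_BALBcJ_G0011347 was 48.7, that of MGP_BALBcJ_G0007271 67.3 and that of MGP_BALBcJ_G0039653 10.8.

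**Figure D2:**
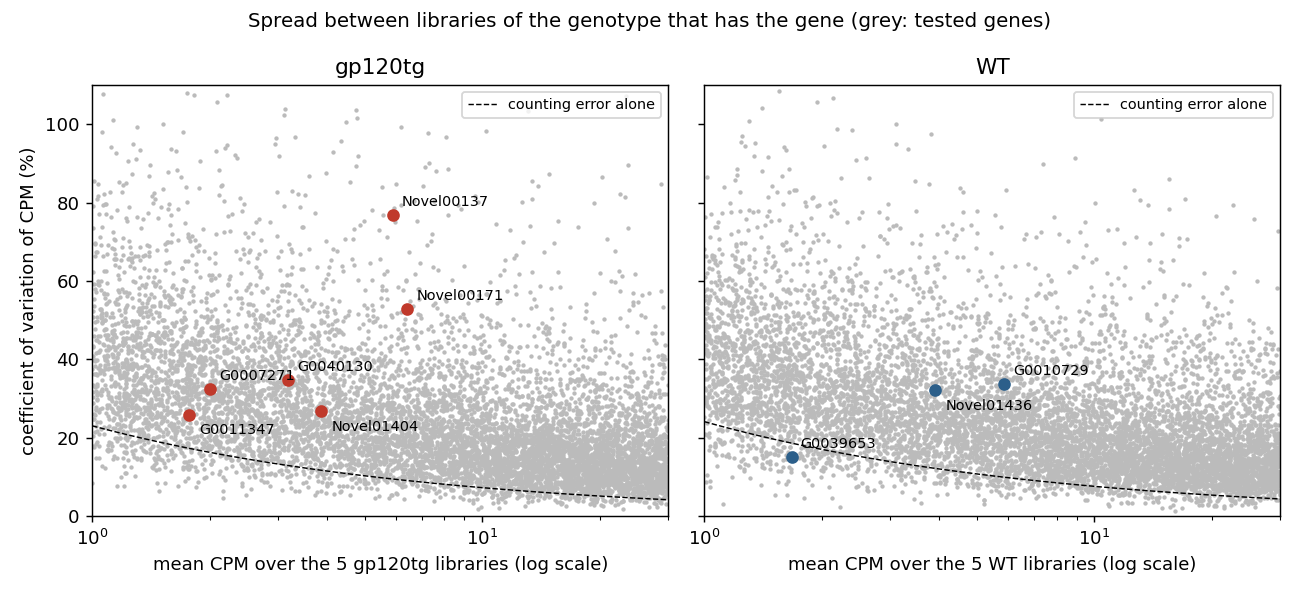
Coefficient of variation of CPM over the 5 libraries of a genotype (y axis, percent, shown up to 110) against mean CPM (x axis, log scale, 1 to 30), for tested genes in grey and the 9 genes in colour, with the dashed line for counting error alone. Novel00137 (76.9%) and Novel00171 (52.9%) lie high among gp120tg genes of their level, and MGP_BALBcJ_G0039653 (15.1%) lies under the dashed line.

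The size of the difference is limited by how few reads the other genotype holds. From the summed reads and library totals, the level in the genotype with at least 1 CPM was divided by the level in the other. This ratio was 280 for Novel00171 (exact 95% binomial interval 77.2 to 2318) and 510 for Novel00137 (91.1 to 20176). It was 153 for MGP_BALBcJ_G0011347 (27.0 to 6063), 42.9 for MGP_BALBcJ_G0007271 (16.5 to 159) and 111 for Novel01404 (37.5 to 539). For the genes of WT it was 271 for MGP_BALBcJ_G0010729 (74.7 to 2247), 78.2 for MGP_BALBcJ_G0039653 (21.3 to 652) and 90.3 for Novel01436 (34.9 to 333). The intervals cover counting error only. They do not allow for the rule, which kept only genes with few reads in the other genotype and so favours high ratios. The intervals overlap among all 8 genes. No test between the ratios was made, and they are not used to rank the genes.

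Single libraries of the near-absent genotype decide these ratios. Without the 1 library that held their reads, 4 genes were at 0 in the other genotype: MGP_BALBcJ_G0011347 without WT replicate 3 (at least 10.2-fold higher), Novel00137 without WT replicate 4 (at least 33.7-fold), MGP_BALBcJ_G0010729 without gp120tg replicate 4 (at least 37.6-fold) and MGP_BALBcJ_G0039653 without gp120tg replicate 1 (at least 10.3-fold). Without WT replicate 2 the ratio was 139 for MGP_BALBcJ_G0007271, 268 for Novel01404 and 452 for Novel00171. For Novel00171 it was 452 also without WT replicate 1, and for Novel01436 it was 143 without gp120tg replicate 5. For MGP_BALBcJ_G0007271, with 4 reads in WT, 3 of them came from WT replicate 2.

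In the fit over all genes (quasi-likelihood test of edgeR, Benjamini-Hochberg adjusted), all 9 genes were among the calls at an adjusted p under 0.05, as their selection on the same contrast makes near certain. Of 16941 genes tested, 8.37% were called, 6.40% as higher in gp120tg and 1.97% as lower. Fitted log2 fold changes, gp120tg over WT, were 5.18 (standard error 0.623, MGP_BALBcJ_G0007271) to 8.82 (0.702, MGP_BALBcJ_G0040130) for the 6 genes of gp120tg. They were -7.74 (0.598, MGP_BALBcJ_G0010729) to -5.95 (0.600, MGP_BALBcJ_G0039653) for the 3 genes of WT. With so few reads in one group, these fitted values and their standard errors depend on the model's prior count and are not bounds. In bulk tissue, fewer cells of a type that express a gene and less RNA per cell cannot be told apart.

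The boundary of the rule cut through a continuous range of levels. Just inside it, MGP_BALBcJ_G0007271 had the highest single count in the other genotype (3 reads), and Novel00137 had the lowest single level (1.11 CPM). Just outside, MGP_BALBcJ_G0015179, MGP_BALBcJ_G0029707 and MGP_BALBcJ_G0033950 had at least 1 CPM in every gp120tg library and at most 4 reads in a WT library. MGP_BALBcJ_G0016764 had no read in WT and 17 to 44 reads in gp120tg, and missed the rule because 1 library was at 0.86 CPM. MGP_BALBcJ_G0030693 missed it likewise at 0.86 CPM, and MGP_BALBcJ_G0028866 at 0.586 CPM.

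On the WT side, MGP_BALBcJ_G0015767 and MGP_BALBcJ_G0003743 reached 5 reads in a gp120tg library. Novel01434 reached 8, although it had 165 to 239 reads in every WT library. MGP_BALBcJ_G0028435, Novel01335 and MGP_BALBcJ_G0013637 had at most 3 reads in gp120tg libraries and fell to 0.704, 0.608 and 0.601 CPM in their lowest WT library. With up to 10 reads allowed in the other genotype, 38 genes qualified for gp120tg and 11 for WT. With up to 20 reads these were 111 and 21. With 3 reads allowed and a minimum of 0.5 CPM, 12 and 7 qualified, and with a minimum of 3 CPM 0 and 1, the latter being MGP_BALBcJ_G0010729.

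**Figure D3:**
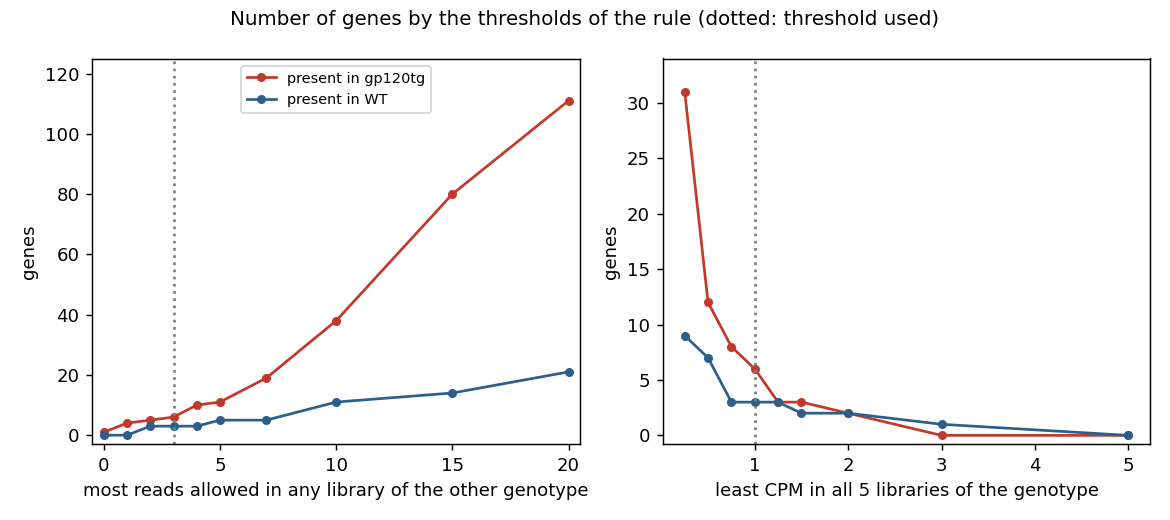
Number of genes (y axis) that meet the rule as the most reads allowed in a library of the other genotype change (left, with at least 1 CPM) and as the minimum CPM changes (right, with at most 3 reads), for gp120tg in red and WT in blue. Dotted lines mark the thresholds used, where the counts are 6 and 3; with 20 reads allowed they are 111 and 21.

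The genes with the most similar levels over the 10 libraries were mostly those just outside the rule. That outcome was likely in advance, since the rule used the same values and the 9 genes were not candidates. Likeness was measured as the root mean square difference of log2(CPM + 0.1), among tested genes other than the 9. MGP_BALBcJ_G0016764 was the nearest to MGP_BALBcJ_G0011347 (0.507) and to MGP_BALBcJ_G0007271 (0.537). MGP_BALBcJ_G0015179 was the nearest to MGP_BALBcJ_G0040130 (0.763) and to Novel01404 (0.618), and MGP_BALBcJ_G0029707 to Novel00171 (0.691). On the WT side, MGP_BALBcJ_G0013637 was nearest to MGP_BALBcJ_G0039653 (0.782) and MGP_BALBcJ_G0015767 to Novel01436 (0.769). Novel00137 and MGP_BALBcJ_G0010729 had no gene as close: their nearest, MGP_BALBcJ_G0029028 and MGP_BALBcJ_G0028163, differed by 1.06 and 1.19.

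Genes whose identifier numbers lie within 5 of one of the 9 were examined next, since the rule did not use them. Whether the numbers follow the order of genes in the genome is not stated in the sources used here. All 90 such rows are in the table. Of these, 26 had no read in any library, 32 were tested and 32 had reads but did not pass the filter on low counts. The rows at 0 lay mostly beside prefixed genes (24 of 50) rather than unprefixed ones (2 of 40): MGP_BALBcJ_G0011347 stood among 8 rows at 0, MGP_BALBcJ_G0010729 among 6 and MGP_BALBcJ_G0040130 among 5. Of all 41880 rows, 12999 had no read. The share at 0 was not taken apart for prefixed and unprefixed rows, so this split is not shown to be particular to these neighbours.

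Of the 32 tested rows, 4 (12.5%) were called (edgeR, adjusted p under 0.05), 1 higher and 3 lower in gp120tg, compared with 8.37% of all tested genes. Within 2 numbers 3 of 9 tested rows were called (33.3%), and within 20 numbers 6 of 105 (5.71%). The median log2 fold change of the 32 rows was -0.29, against -0.03 over all tested genes. The expression of Novel01434 and Novel01435 differed between the genotypes in opposite directions, beside Novel01436. Novel01434 had 239, 230, 165, 214 and 193 reads in WT replicates 1 to 5 and 3, 3, 1, 2 and 8 reads in gp120tg, at levels of 12.2 ± 2.06 CPM (WT) and 0.178 ± 0.137 CPM (gp120tg; SD, n = 5 each). Its log2 fold change was -6.08 ± 0.331 (standard error; adjusted p = 4.57e-07 by edgeR). Novel01435, numbered between it and Novel01436, rose by 2.60 ± 0.270 on the log2 scale, with 0.772 ± 0.238 CPM (WT) and 4.89 ± 0.999 CPM (gp120tg; SD, n = 5 each; change with its standard error; adjusted p = 4.82e-05 by edgeR). These 3 consecutive numbers held 2 models counted in WT and nearly absent from gp120tg, with a model of the opposite direction between them, and the next 2 numbers had no read in any library.

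MGP_BALBcJ_G0040126, numbered 4 below MGP_BALBcJ_G0040130, had 38, 35, 35, 23 and 23 reads in WT replicates 1 to 5. In gp120tg it had 0, 0, 1, 1 and 10 reads, so that 4 of the 5 transgenic mice were at or near 0 and replicate 5 was not. Its levels were 1.81 ± 0.501 CPM (WT) and 0.125 ± 0.219 CPM (gp120tg; SD, n = 5 each). It fell by 3.81 ± 0.695 on the log2 scale (change with its standard error; adjusted p = 0.0033 by edgeR), in the opposite direction to MGP_BALBcJ_G0040130. Replicate 5 was also the gp120tg library in which MGP_BALBcJ_G0040130 was lowest (1.75 CPM). This was not particular to that gene, since MGP_BALBcJ_G0011347 (1.23 CPM) and Novel01404 (2.98 CPM) were lowest in replicate 5 too.

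Novel00139, numbered 2 above Novel00137, was lower in gp120tg (1.34 ± 0.470 CPM) than in WT (3.57 ± 0.540 CPM; SD, n = 5 each). It fell by 1.45 ± 0.262 on the log2 scale (change with its standard error; adjusted p = 0.00304 by edgeR). It too changed in the opposite direction to the gene beside it. The next 2 numbers did not pass the filter on low counts but were in the same order. Novel00140 had 4, 22, 21, 8 and 5 reads in WT and 0 to 2 in gp120tg, and Novel00141 had 3 to 11 reads in WT and 0 to 3 in gp120tg.

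Beside 2 genes of gp120tg, an adjoining number showed the same direction at a level too low to be tested. Novel01403 had 11, 10, 8, 14 and 15 reads in gp120tg replicates 1 to 5, and its only read in WT was in replicate 5. It precedes Novel01404. MGP_BALBcJ_G0007270 had 22, 18, 25, 8 and 6 reads in gp120tg and 2, 4, 1, 0 and 4 in WT, and precedes MGP_BALBcJ_G0007271. Among the 32 untested rows with reads, these 2 were higher in CPM in every gp120tg library than in any WT library, and Novel00140 and Novel00141 were lower. For Novel00141 this rests on library totals alone, since its highest gp120tg count and its lowest WT count were both 3 reads. Among the 32 tested rows, such separation was upward for 1 (Novel01435), a smaller share than the 7.69% of all tested genes. It was downward for 3, a larger share than the 1.88% of all tested genes. Neither difference was tested. Over all 11940 untested rows with a read, 1.07% were separated upward and 0.419% downward. Without the filter on low counts, edgeR called Novel01403 (log2 fold change 5.04, adjusted p = 0.000518), MGP_BALBcJ_G0007270 (2.60, adjusted p = 0.0166) and Novel00140 (-3.90, adjusted p = 0.00355). DESeq2 called these and Novel00141 (-2.95, adjusted p = 0.0355). The share of all genes called was not taken for these fits.

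Within the same distance, no neighbour of the other 4 genes was called in the fit over all 10 libraries or, where untested, separated between the genotypes. MGP_BALBcJ_G0011343, numbered 4 below MGP_BALBcJ_G0011347, was called higher when gp120tg replicate 4 and WT replicates 4 and 5 were left out (log2 fold change 0.61, adjusted p = 0.0443 by edgeR). Novel00171 had 5 tested neighbours, with a median log2 fold change of -0.60. MGP_BALBcJ_G0011347 and MGP_BALBcJ_G0039653 had 1 tested neighbour each, and MGP_BALBcJ_G0010729 had none that reached the filter. The 9 genes themselves were not adjacent. Novel01404 and Novel01436 were 32 numbers apart, and Novel00137 and Novel00171 were 34 apart.

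**Figure D4:**
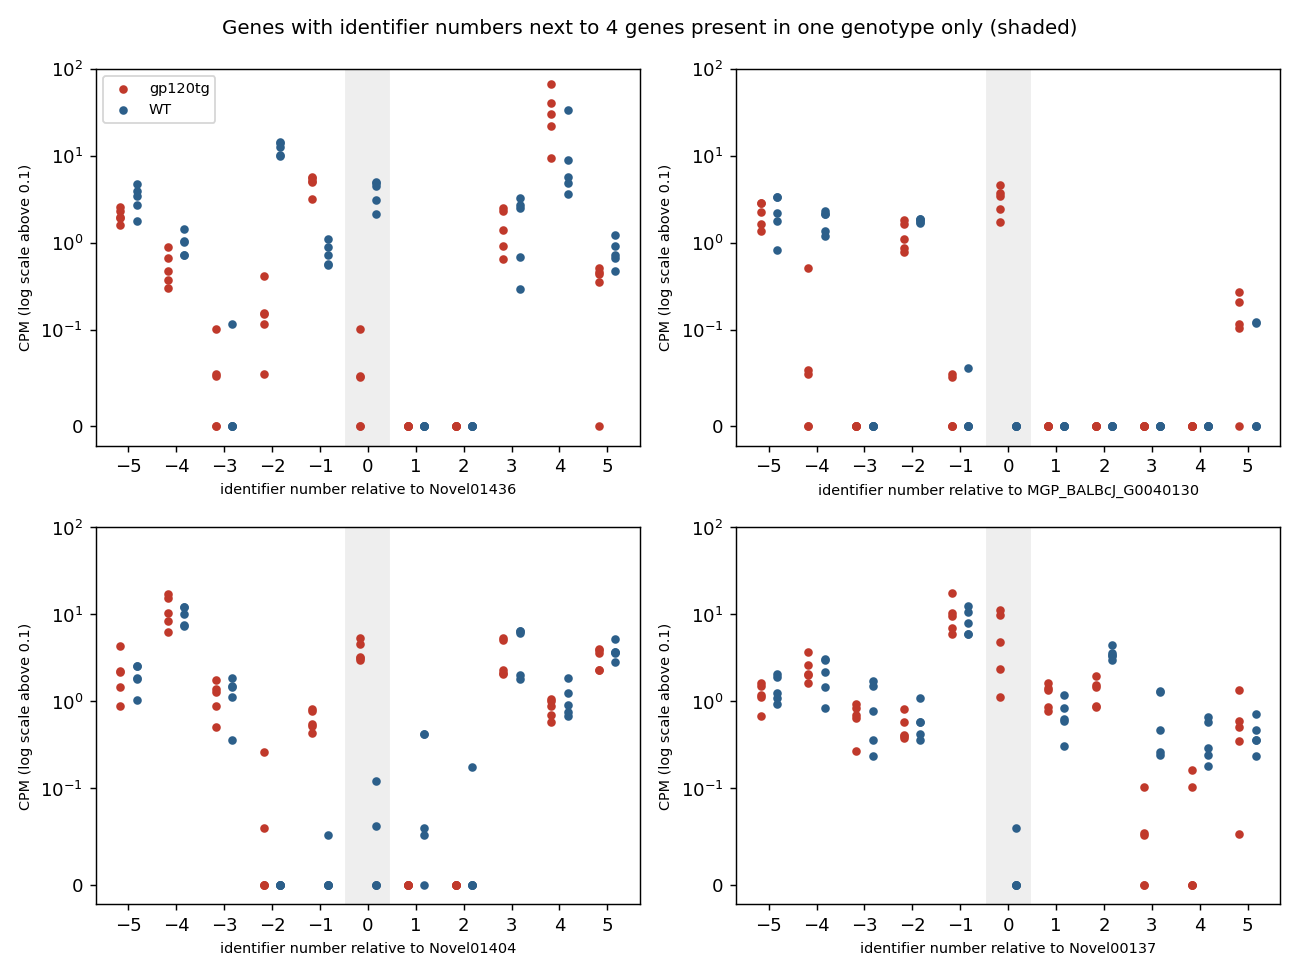
CPM in each library (y axis, log scale above 0.1 and linear below) of the genes numbered up to 5 below and above Novel01436, MGP_BALBcJ_G0040130, Novel01404 and Novel00137 (x axis, number relative to the shaded gene), with gp120tg in red and WT in blue. The WT points of Novel01434 (at -2) lie near 12.2 CPM and its gp120tg points near 0.178, and the order is turned for Novel01435 (at -1).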

How the data were processed

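Read counts per gene for 10 libraries (5 gp120tg, 5 WT) were used as deposited by the authors; these are raw counts. The submitters' processing notes name HTSeq (version 0.5.4), STAR, GATK, Picard and SAMtools (version 0.1.18), with no roles. The build, the release of the annotation and the strand setting were not given in the sources used here, so reads of overlapping, antisense or near-identical genes cannot be told apart. The labels call the samples biological replicates.

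CPM was scaled by library total. The 9 genes were found by the rule given in the report; they and the lists of neighbours were chosen with earlier results of these data known. Genotypes were compared with edgeR version 4.0.16 (R version 4.3.3, quasi-likelihood test, TMM factors, default low-count filter, robust dispersions). Adjustment was by Benjamini-Hochberg over 16941 genes, with calls at 0.05. The test was first run on simulated data, and the outcome is not given here and is not used as support. Standard errors are the absolute log2 fold change over the square root of F. Ratios of summed reads have exact (Clopper-Pearson) 95% intervals. Individually given genes were the 9, the 3 nearest rows at each boundary, called neighbours within 5 numbers and the nearest profile (pseudocount 0.1); the untested neighbours were added after their values were seen. Alternatives were RLE, upper-quartile and no factors, DESeq2 version 1.42.0, limma-voom (limma version 3.58.1), no filter, a replicate block, other thresholds and leaving out libraries. No sequence, position or symbol was used, since no identifier matched the references at hand.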

Additional observations from a re-analysis of the deposited data

Results flagged for a closer look

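Dixon's outlier test was applied to 27 groups of 5 libraries, for the totals, the 9 genes and the 4 called neighbours. It marked 9 values. Chance marks about 1 in 20 groups, but that rate does not apply where 4 of the 5 libraries are at 0 reads, since a single library with reads is then always marked; this was so for 4 of the 9. Of the 9 marked values, 5 belonged to genes that met the rule, in the genotype where the gene is nearly absent and 1 to 3 reads make the value. They were these 4, MGP_BALBcJ_G0010729 at 0.117 CPM in gp120tg replicate 4, MGP_BALBcJ_G0039653 at 0.101 CPM in gp120tg replicate 1, Novel00137 at 0.0587 CPM in WT replicate 4 and MGP_BALBcJ_G0011347 at 0.0608 CPM in WT replicate 3, and also MGP_BALBcJ_G0007271 at 0.181 CPM in WT replicate 2. No gene of the 9 was marked in the genotype in which it reached 1 CPM. In gp120tg replicate 5, the called neighbours MGP_BALBcJ_G0040126 and Novel01434 were at 0.514 and 0.411 CPM, each above the other gp120tg libraries. These too are low values, in the genotype where the gene is at few reads. In gp120tg replicate 4, Novel01435 was at 3.16 CPM, below the other gp120tg libraries. WT replicate 5 had a total of 19176929 reads, above the other WT libraries.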

How the results depend on the processing

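The numbers of genes that met the rule, 6 for gp120tg and 3 for WT, depended on the thresholds and not on the scaling. TMM-scaled CPM and a ceiling of 0.2 CPM in place of 3 reads gave the same 9 genes. With at most 0 reads in the other genotype the numbers were 1 and 0, and with at most 1 read 4 and 0. With at most 5 reads they were 11 and 5, and with at most 10 reads 38 and 11. With at least 0.5 CPM they were 12 and 7, and with at least 2 CPM 2 and 2. Leaving out 1 library gave 6 to 9 and 3 to 5; the largest numbers came without gp120tg replicate 1 or WT replicate 3 (9) and without gp120tg replicate 5 (5). All 9 genes kept their direction and call in all 18 alternative fits. Their choice on the same counts fixes the direction and makes the call near certain, so neither is support. The highest adjusted p (0.028 by edgeR) was for Novel00137 without gp120tg replicate 4 and WT replicates 4 and 5. That alternative was chosen after seeing the data. The 4 called neighbours became 8 with DESeq2 and 7 without the filter on low counts, where more genes are tested, 6 without gp120tg replicate 4 and WT replicates 4 and 5 (MGP_BALBcJ_G0007270 and MGP_BALBcJ_G0011343 were added), and 4 to 5 without 1 library; within 2 numbers 3 of 9 tested rows were called (33.3%), and within 20 numbers 6 of 105 (5.71%). Called genes over the table numbered 1418, 1124 to 1335 without 1 library, 1907 with DESeq2 and 1406 without the filter on low counts. The share of 8.37% belongs to the main fit and does not serve as background for DESeq2 or for the fit without the filter. No share of tested genes was taken for those fits, so their 8 and 7 called neighbours stand without a background. Same-numbered libraries of the genotypes did not deviate together in all pairs (correlations -0.17 to 0.33). The labels state no pairing, and correlations over all genes cannot show whether the numbers pair the mice. With the replicate number as a block, 1162 genes were called, of which 1090 were among the 1418, all 9 genes among them. At these totals 1 read is about 0.05 to 0.06 CPM, so levels under the floor of 3 reads were not separable from 0.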
